A study of Mus musculus with 4 samples.

Results

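The genes described here build the major histocompatibility complex (MHC) class I and class II molecules of the mouse, called H2, and the machinery that loads them with peptides. They were taken from the deposited expression table by name: every gene whose symbol begins with H2-, and 14 named genes of antigen processing. The table of 15818 genes held 18 H2- symbols and 13 of the 14 named genes, 31 in all. *Ciita*, the class II transactivator, was the named gene not analysed here, as were further H2 genes that GENCODE M21 annotates, among them *H2-Oa*, *H2-Ob*, *H2-DMb2* and *H2-Q6*. The rule uses names and no threshold on a measured value, and it was set with earlier results of these data known.

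Olfactory bulb RNA was compared between *Unc80* G/G and *Unc80* S/S mice. *Unc80* encodes a subunit of the sodium leak channel complex, and its transcript is recoded by A-to-I editing. *Unc80* G/G mice carry a glycine codon at that site on both alleles, which fixes the edited state, and *Unc80* S/S mice carry a serine codon there that cannot be edited. Both lines were made by CRISPR/Cas9 in embryos of B6D2F1 females, the hybrid of C57BL/6 and DBA/2 mice. The mice were males of 2 to 5 months, and the legend of the study is read here as 2 pools of 3 mice per genotype, because each genotype has 2 libraries. C57BL/6 and DBA/2 mice differ in their H2 haplotype, and the haplotype of the sequenced mice is not stated in the sources used here. In all, the libraries held 35465913 and 35694633 reads for *Unc80* G/G and 35800890 and 38051810 reads for *Unc80* S/S. Expression is given as the authors' mean of each genotype, in counts per 1000000 counted reads (CPM). Markers of the labelled tissue were present. All 9 genes of a list for olfactory bulb neurons and incoming sensory axons (*Omp*) were in the table. Their summed level was 1992 CPM in *Unc80* G/G and 2035 CPM in *Unc80* S/S bulbs.

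Class I molecules consist of a heavy chain and beta-2 microglobulin and display peptides that the proteasome cuts in the cytosol, TAP carries into the endoplasmic reticulum and ERAP1 trims there. Class II molecules consist of an alpha and a beta chain, travel with the invariant chain to endosomes, and receive their peptides there with the help of H2-DM. In the brain, class II is mainly a product of microglia and border macrophages, while class I is made at low levels by endothelium, glia and some neurons.

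Many class I genes arose from each other by duplication, and how far their transcripts can be told apart bears on every count of reads. The libraries were read as 75 bp paired ends, so each annotated transcript was cut into all stretches of 75 bases, and a stretch was called shared where another gene of GENCODE M21 also holds it. Stretches were compared in the sense direction only and without the other read of a pair. Of the 31 genes, 13 shared at least 1 stretch and 18 shared none. *Psmb9* and *Tap1*, whose spans overlap on opposite strands, count among those that shared none. The share was 22.6% in *H2-Q7*, 19.1% in *H2-DMb1* and 16.6% in *H2-Q1*, the genes that differed most between the genotypes. It was 24.6% in *H2-T22*, 23.3% in *H2-T10*, 13.1% in *H2-T23*, 7.91% in *H2-Q4*, 6.15% in *H2-D1*, 4.99% in *H2-K2* and 1.12% in *H2-K1*. *H2-Ke6* stood at 51.3%, all of it with the overlapping gene model Gm20427, which covers 86.4% of its exon bases. All coordinates are GRCm38.

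**Figure D1:**
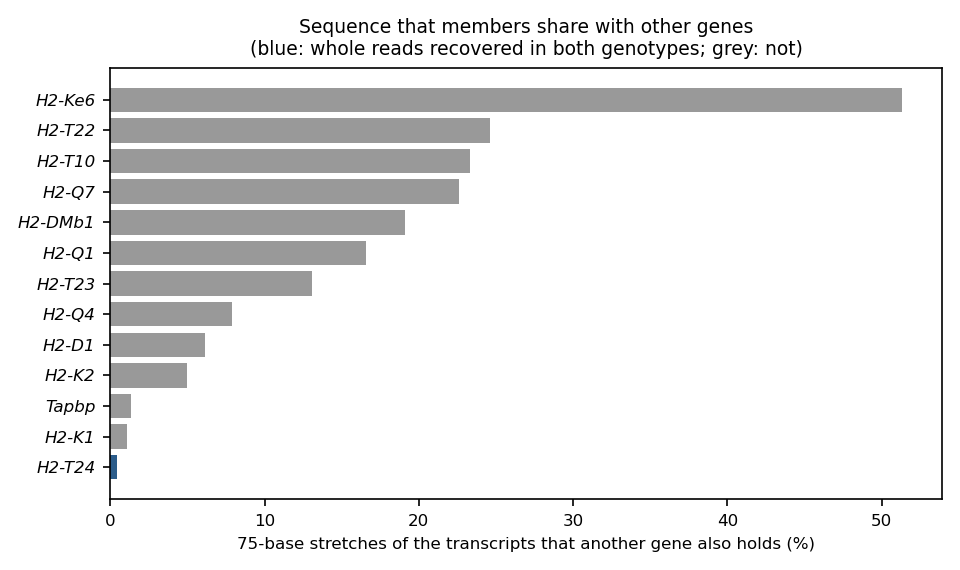
Share of the 75-base stretches of each transcript set that another annotated gene also holds (x axis, percent), for the 13 genes with any such stretch. Blue marks the gene whose reads could be recovered per library, *H2-T24* at 0.459%, and grey marks the 12 genes where they could not, from *H2-K1* at 1.12% to *H2-Ke6* at 51.3%.

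The first sequence is shown because a read on it cannot be given to a single gene without the other read of its pair. It lies in exon 4 of *H2-Q7*, on the plus strand at chr17:35442368-35442442, coding bases 712 to 786, and 8 other genes hold the same 75 bases, among them *H2-D1*, *H2-Q1*, *H2-T22* and *H2-T23*. The exon encodes the membrane-proximal part of the heavy chain.
H2-Q7, shared stretch: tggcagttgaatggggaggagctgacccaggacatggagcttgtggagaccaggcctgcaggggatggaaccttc
The next 5 sequences show a stretch by which *H2-Q7* can be told apart from *H2-Q6*, *H2-Q1*, *H2-D1* and *H2-K1*. *H2-K1* does not hold the shared stretch above, and *H2-T22* and *H2-T23* were not compared. All 5 sequences come from exon 2, which encodes part of the peptide groove, and are written in the sense of the coding strand. Capitals mark bases that differ from *H2-Q7*. There were 11 such bases in *H2-Q6* (chr17:35425108-35425182, plus strand), 11 in *H2-Q1* (chr17:35320821-35320895, plus strand), 10 in *H2-D1* (chr17:35263379-35263453, plus strand) and 13 in *H2-K1* (chr17:33999929-34000003, minus strand), against *H2-Q7* at chr17:35439452-35439526 on the plus strand.
H2-Q7: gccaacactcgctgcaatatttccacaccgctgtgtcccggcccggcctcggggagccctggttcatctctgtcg
H2-Q6: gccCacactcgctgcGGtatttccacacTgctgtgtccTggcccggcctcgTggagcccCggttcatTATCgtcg
H2-Q1: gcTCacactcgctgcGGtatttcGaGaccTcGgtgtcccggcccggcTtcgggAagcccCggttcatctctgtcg
H2-D1: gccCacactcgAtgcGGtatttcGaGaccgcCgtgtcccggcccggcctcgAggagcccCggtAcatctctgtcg
H2-K1: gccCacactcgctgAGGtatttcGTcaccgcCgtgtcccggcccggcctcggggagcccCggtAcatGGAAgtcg
A last coding stretch belongs to *H2-DMb1*, which has a near-identical neighbor, *H2-DMb2*. Their coding sequences are both 783 bases long and differ at 32 of them, an identity of 95.9%. The stretch below is the same in both genes and stands in exon 2 of *H2-DMb1*, on the plus strand at chr17:34155472-34155546.
H2-DMb1 and H2-DMb2: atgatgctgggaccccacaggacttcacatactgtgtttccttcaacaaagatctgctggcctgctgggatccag

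Between the genotypes, 3 of the 31 genes differed by more than 1.5-fold in the CPM means. *H2-Q7* and *H2-DMb1* were higher in *Unc80* G/G bulbs and *H2-Q1* was lower, and the remaining 28 lay within 1.5-fold. Over all genes of the table, 0.518% were past 1.5-fold in either direction, 0.329% higher and 0.19% lower in *Unc80* G/G. The share depended on the level: under 5 CPM, 2.30% of 3310 genes were past 1.5-fold and 3 of 16 genes described here, while from 5 CPM upward it was 0.048% of 12508 genes and 0 of 15 here. Being higher in *Unc80* G/G by any amount held for 18 of the 31 genes, beside 47.2% of all genes. The median log2 fold change was 0.01 over the 31 genes and -0.01 over all genes.

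The table holds 1 mean per genotype and no value per library, so a fold change taken from these means carries no replicate error. A 95% interval was therefore computed from the number of reads behind each mean (exact Clopper-Pearson, conditional on the total). Reads of a PCR-amplified library are not independent molecules, so these intervals cover counting error only, and not the difference between pools. The interval excluded 1 for 9 of the 31 genes, beside 15.5% of all genes. These 9 were *H2-D1*, *H2-K1*, *B2m*, *H2-Q7* and *H2-DMb1*, higher in *Unc80* G/G, and *H2-Q1*, *Psmb10*, *Calr* and *Pdia3*, lower in *Unc80* G/G. For 7 genes the means resolved into whole reads per library. The quasi-likelihood test of edgeR, run on those reads, called 0 of the 7, beside 0.0786% of the 2545 genes so recovered. None of the 7 had an unadjusted p under 0.05 either, with edgeR, with edgeR after TMM scaling or with DESeq2, beside 5.58% of the recovered genes with edgeR. No difference was thus shown for the 7 genes that could be set against the spread between pools. In bulk tissue, fewer cells of a type and less RNA per cell cannot be told apart.

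**Figure D2:**
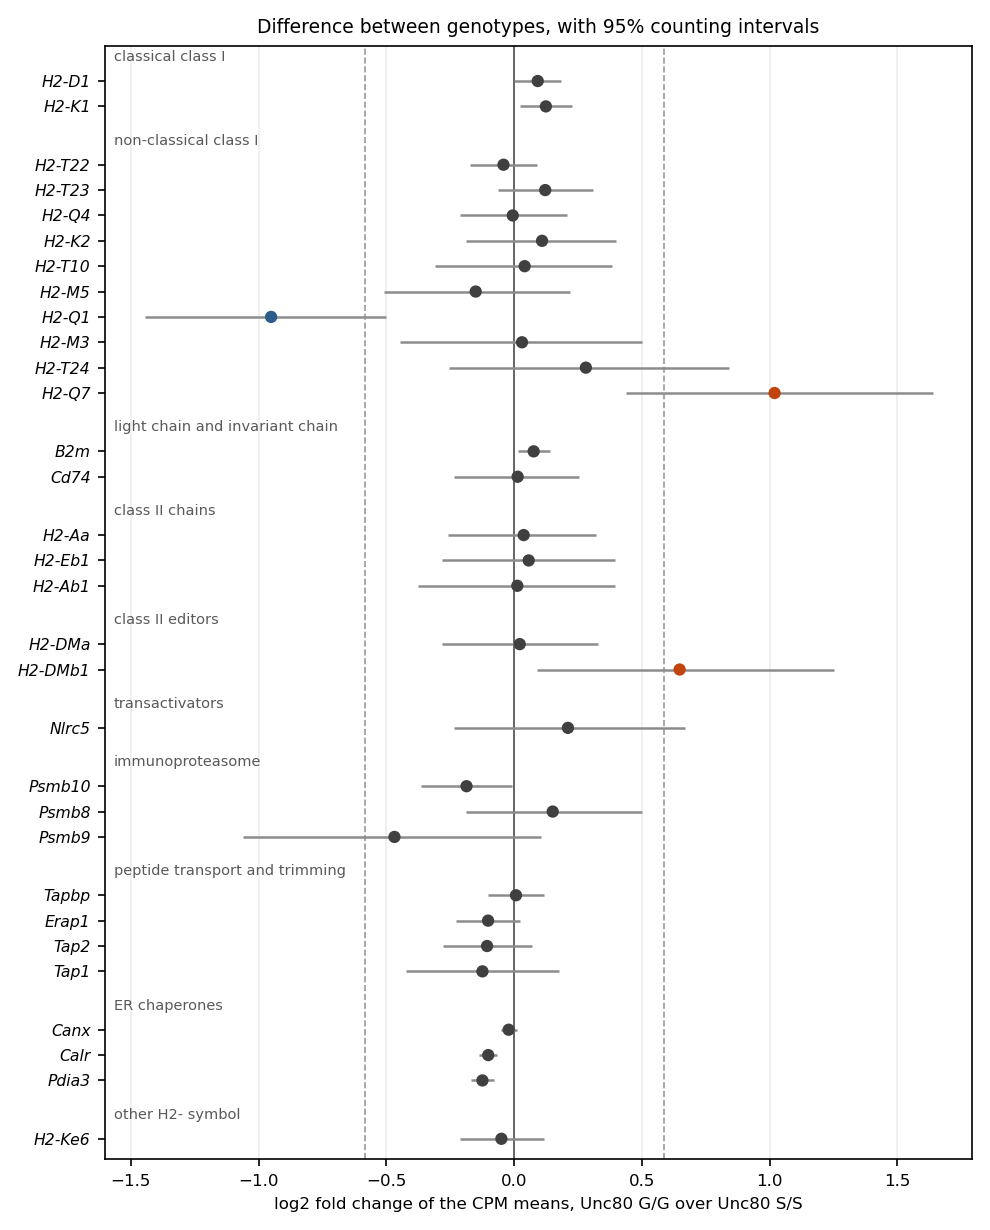
Log2 fold change of the CPM means, *Unc80* G/G over *Unc80* S/S (x axis), for each gene by role, with 95% counting intervals as lines. The dashed lines stand at 1.5-fold, and the colored points beyond them are *H2-Q7* (1.02) and *H2-DMb1* (0.65) in orange, higher in *Unc80* G/G, and *H2-Q1* (-0.95) in blue, lower.

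The classical class I heavy chains, which present peptides to CD8 T cells, had the highest levels of the heavy chains per kilobase of annotated exon. *H2-D1* (chr17:35262730-35267499, plus strand) had 39.3 CPM in *Unc80* G/G and 36.8 CPM in *Unc80* S/S bulbs, a ratio of 1.07 (95% counting interval 1.0006 to 1.14). *H2-K1* (chr17:33996017-34000347, minus strand) had 32.1 CPM in *Unc80* G/G and 29.5 CPM in *Unc80* S/S, a ratio of 1.09 (1.02 to 1.17). Both were thus less than 1.1-fold higher in *Unc80* G/G, with about 1967 reads in *Unc80* G/G and 1905 in *Unc80* S/S behind *H2-D1*, and 1609 in *Unc80* G/G and 1524 in *Unc80* S/S behind *H2-K1*. Per kilobase, *H2-D1* stood at 15.2 CPM and *H2-K1* at 10.9 CPM in *Unc80* G/G, against 14.3 and 10.03 CPM in *Unc80* S/S.

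*B2m*, which encodes the beta-2 microglobulin light chain of every class I molecule, lies on chromosome 2 from 122147686 to 122153083, outside the MHC, and shares no 75-base stretch with another gene. Its means were 83.2 CPM in *Unc80* G/G and 78.9 CPM in *Unc80* S/S bulbs, a ratio of 1.05 (1.01 to 1.10). The recovered reads gave 85.7 and 80.8 CPM in the *Unc80* G/G libraries (2171 and 1998 reads), against 79.9 and 77.9 CPM in the *Unc80* S/S libraries (2116 and 1966 reads). Both *Unc80* G/G libraries were above both *Unc80* S/S libraries. The edgeR log2 fold change was 0.08 with a standard error of 0.05 (unadjusted p = 0.146, adjusted p = 0.969). Per kilobase of exon, *B2m* stood at 96.8 CPM in *Unc80* G/G, the highest of the 31 genes there, and at 91.7 CPM in *Unc80* S/S, where *Calr* was higher.

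The promoter windows of *B2m*, *H2-K1* and *Tap1* are shown because the light chain and a classical heavy chain lay on the same side, while *Tap1* starts next to *Psmb9*, which lay on the other. They hold the 250 bases before the start site in RefSeq's GRCm38.p6 annotation, in the sense of the gene. Capitals mark matches to 3 motifs searched on both strands: CCAAT, the interferon-stimulated element (GAAA, 2 bases of any kind, GAAA) and the kappa B site (GGGGA, 2 bases of any kind, CCC). The *B2m* window (chr2:122147437-122147686, plus strand) holds 1 interferon element and 1 CCAAT box read on the other strand as ATTGG. The *H2-K1* window (chr17:34000348-34000597, minus strand) holds kappa B matches, of which the second reads as a match on both strands, and 1 CCAAT box on the other strand. The *Tap1* window (chr17:34187306-34187555, plus strand) holds a CCAAT box.
B2m promoter: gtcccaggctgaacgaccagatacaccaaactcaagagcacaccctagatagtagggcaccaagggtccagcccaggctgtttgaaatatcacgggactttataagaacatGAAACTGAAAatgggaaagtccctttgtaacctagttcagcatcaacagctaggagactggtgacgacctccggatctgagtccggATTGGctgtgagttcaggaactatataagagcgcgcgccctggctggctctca
H2-K1 promoter: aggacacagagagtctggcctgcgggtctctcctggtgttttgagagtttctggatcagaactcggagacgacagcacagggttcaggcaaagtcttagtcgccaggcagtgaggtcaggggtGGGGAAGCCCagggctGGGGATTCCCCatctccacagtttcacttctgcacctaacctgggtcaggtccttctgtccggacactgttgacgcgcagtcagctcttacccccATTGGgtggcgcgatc
Tap1 promoter: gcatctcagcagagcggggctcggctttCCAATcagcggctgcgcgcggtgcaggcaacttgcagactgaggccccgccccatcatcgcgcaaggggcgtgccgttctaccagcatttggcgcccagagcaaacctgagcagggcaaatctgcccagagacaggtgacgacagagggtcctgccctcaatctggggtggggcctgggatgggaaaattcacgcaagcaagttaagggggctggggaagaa
In the 300-base windows that run on 50 bases past the start, 23 of the 31 genes had an entry. A gene was counted where any of its windows held the motif. CCAAT was found in 19 of the 23 genes, beside 41.1% of 27025 genes with an entry and 37.4% of all 32851 windows. The interferon element was found in 4 (*B2m*, *Erap1*, *H2-T22* and *H2-T23*) beside 3.99% of all genes and 3.44% of all windows, and the kappa B site in 4 (*H2-D1*, *H2-K1*, *H2-Q7* and *Calr*), beside 1.89% of all genes and 1.65% of all windows. These are matches of letters to a fixed pattern per motif, which do not show that a factor binds there. A gene without a match may hold a variant of the element that the pattern misses.

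Among the non-classical class I genes, *H2-T22*, *H2-T23* and *H2-Q4* stood highest per kilobase of exon, at 5.39, 3.38 and 2.90 CPM in *Unc80* G/G and 5.54, 3.11 and 2.91 CPM in *Unc80* S/S. *H2-T22*, whose product is a ligand of gamma delta T cells, had 18.4 CPM in *Unc80* G/G and 18.9 CPM in *Unc80* S/S, a ratio of 0.972 (0.887 to 1.06). *H2-T10*, its close relative and annotated as a polymorphic pseudogene, had 2.82 CPM in *Unc80* G/G and 2.74 CPM in *Unc80* S/S. *H2-T23* encodes Qa-1, which engages the inhibitory NKG2A receptor of natural killer cells. It had 9.76 CPM in *Unc80* G/G and 8.97 CPM in *Unc80* S/S (ratio 1.09, interval 0.956 to 1.24). *H2-Q4*, a gene of the Q region, had 7.52 CPM in *Unc80* G/G and 7.55 CPM in *Unc80* S/S (ratio 0.996, interval 0.864 to 1.153). *H2-K2*, a transcribed pseudogene beside *H2-K1*, had 3.96 CPM in *Unc80* G/G and 3.67 CPM in *Unc80* S/S. All these intervals include 1.

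*H2-Q7* (chr17:35439155-35443773, plus strand) encodes Qa-2, a class I molecule held in the membrane by a lipid anchor. Its means were 1.45 CPM in *Unc80* G/G and 0.715 CPM in *Unc80* S/S bulbs, a 2.03-fold difference with a counting interval of 1.35 to 3.11. Behind them stand about 73 reads in the 2 *Unc80* G/G libraries together and 37 reads in those of *Unc80* S/S. *H2-Q1* (chr17:35320405-35325099, plus strand), another gene of the Q region, lay the other way. It had 1.17 CPM in *Unc80* G/G and 2.25 CPM in *Unc80* S/S, a ratio of 0.517 (0.367 to 0.707), from about 58 reads in *Unc80* G/G and 117 reads in *Unc80* S/S. Since the means of neither gene resolved into whole reads, the spread between their libraries could not be assessed from them. *H2-Q7* shares 3.53% of its stretches with *H2-Q1*, 11.4% with *H2-Q6* and 3.99% with *H2-D1*. The sum of *H2-Q1*, *H2-Q4* and *H2-Q7* was 10.1 CPM in *Unc80* G/G and 10.5 CPM in *Unc80* S/S, a ratio of 0.964 (0.853 to 1.09). *H2-Q4*, at 7.52 CPM in *Unc80* G/G and 7.55 CPM in *Unc80* S/S, made up most of this sum. The sum therefore cannot show whether the differences of *H2-Q7* and *H2-Q1* offset each other. What part the assignment of shared reads had in either difference was not tested. The reads were aligned to the C57BL/6 reference, so reads of another H2 haplotype could have been counted differently for these genes, which was not tested either.

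The 12 class I heavy chain genes include the pseudogene *H2-K2* and the polymorphic pseudogene *H2-T10*. The sum of all 12 was 121.7 CPM in *Unc80* G/G and 116.3 CPM in *Unc80* S/S bulbs, a ratio of 1.05 (1.01 to 1.08). Without *H2-Q1* and *H2-Q7* it was 119.1 CPM in *Unc80* G/G and 113.4 CPM in *Unc80* S/S, again 1.05 (1.01 to 1.09). A read shared between heavy chains stays in this sum whichever of them it was given to, except where it was given to a gene outside the table.

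Reads per library could be had for 3 non-classical genes, and none differed by edgeR. *H2-M3*, which presents formylated peptides of bacteria and mitochondria, had 36 and 41 reads in the *Unc80* G/G libraries (1.42 and 1.66 CPM), against 42 and 36 reads in those of *Unc80* S/S (1.59 and 1.43 CPM). *H2-M5*, a gene of the M region, had 2.72 and 2.06 CPM in *Unc80* G/G and 2.42 and 2.89 CPM in *Unc80* S/S. *H2-T24*, of the T region, had 1.42 and 1.13 CPM in *Unc80* G/G and 0.793 and 1.31 CPM in *Unc80* S/S. The genotypes overlapped in all 3 genes. The edgeR log2 fold changes were 0.03 (SE 0.24), -0.15 (SE 0.21) and 0.29 (SE 0.29), with adjusted p from 0.980 to 0.992. Libraries are given here with the one of more counted reads first, because their replicate numbers cannot be read from the means.

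**Figure D3:**
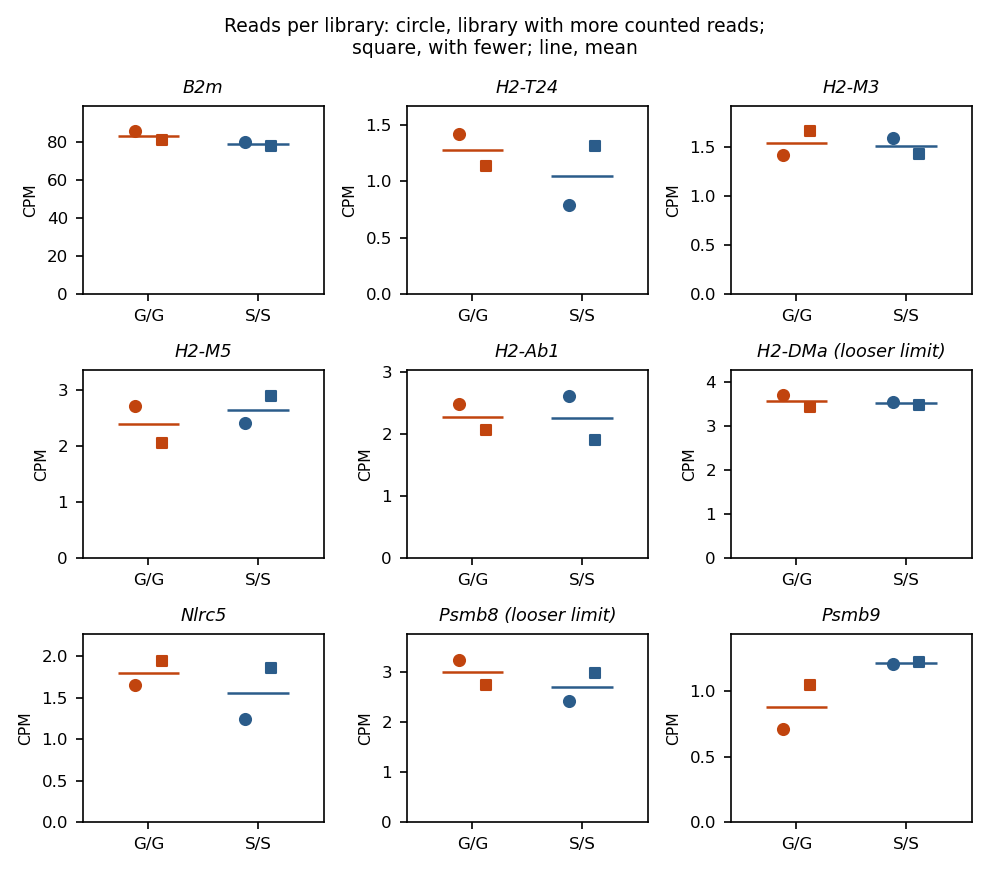
CPM per library (y axis, from 0) of the 9 genes with recovered reads, *Unc80* G/G in orange left of *Unc80* S/S in blue. Circles are the library of each genotype with more counted reads, squares that with fewer, and lines the mean. The genotypes do not overlap in *B2m* (80.8 CPM or more in *Unc80* G/G, 79.9 CPM or less in *Unc80* S/S) and *Psmb9* (1.05 CPM or less in *Unc80* G/G, 1.21 CPM or more in *Unc80* S/S).

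*Nlrc5*, the transactivator of class I genes, had 1.80 CPM in *Unc80* G/G and 1.55 CPM in *Unc80* S/S bulbs. Its recovered reads were 42 and 48 in the *Unc80* G/G libraries (1.66 and 1.94 CPM), against 33 and 47 in those of *Unc80* S/S (1.25 and 1.86 CPM), and the genotypes overlapped. The edgeR log2 fold change was 0.21 (SE 0.25, adjusted p = 0.983).

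The immunoproteasome subunits replace 3 catalytic subunits of the standard proteasome in cells exposed to interferon gamma. *Psmb9* (chr17:34181987-34187764, minus strand), which takes the place of *Psmb6*, had 0.881 CPM in *Unc80* G/G and 1.22 CPM in *Unc80* S/S bulbs. Its recovered reads were 18 and 26 in the *Unc80* G/G libraries (0.710 and 1.05 CPM), against 32 and 31 in those of *Unc80* S/S (1.21 and 1.23 CPM). Both *Unc80* G/G libraries were below both *Unc80* S/S libraries. The chance that these whole reads fit the means at random was 0.000172, which passed the limit of 0.001 but not a 10 times stricter one. The edgeR log2 fold change was -0.47 with a standard error of 0.29 (unadjusted p = 0.123, adjusted p = 0.967), and the counting interval of the ratio, 0.479 to 1.08, includes 1. Complete separation of the libraries, as in *B2m* and *Psmb9*, was seen in 2 of the 7 recovered genes and in 32.8% of all recovered genes, a share near to that of the 7. *Psmb10*, in place of *Psmb7*, had 9.71 CPM in *Unc80* G/G and 11.04 CPM in *Unc80* S/S, a ratio of 0.879 (0.777 to 0.994). *Psmb8*, in place of *Psmb5*, had 2.99 CPM in *Unc80* G/G and 2.69 CPM in *Unc80* S/S. Its reads, recovered under a looser limit only, were 82 and 68 in *Unc80* G/G and 64 and 75 in *Unc80* S/S, with overlap. The standard subunits they replace were within 1.1-fold, with *Psmb5* at 35.2 CPM in *Unc80* G/G and 34.4 CPM in *Unc80* S/S, *Psmb6* at 47.7 CPM in *Unc80* G/G and 51.0 CPM in *Unc80* S/S, and *Psmb7* at 55.4 CPM in *Unc80* G/G and 57.6 CPM in *Unc80* S/S.

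*Tap1* and *Tap2* together encode the peptide transporter of the endoplasmic reticulum. *Tap1* (chr17:34187553-34197225, plus strand) had 3.51 CPM in *Unc80* G/G and 3.83 CPM in *Unc80* S/S, a ratio of 0.918 (0.745 to 1.13). *Tap2* had 10.4 CPM in *Unc80* G/G and 11.1 CPM in *Unc80* S/S (ratio 0.929, interval 0.825 to 1.05). The RefSeq start sites of *Tap1* and *Psmb9* lie 226 bases apart on opposite strands, so that the promoter window of *Tap1* printed above also holds most of that of *Psmb9* (275 of the 300 bases in the longer windows). *Tapbp*, which encodes tapasin, the bridge between TAP and class I, had 27.0 CPM in *Unc80* G/G and 26.9 CPM in *Unc80* S/S (ratio 1.01, interval 0.932 to 1.08). *Erap1*, the peptide-trimming aminopeptidase, had 20.0 CPM in *Unc80* G/G and 21.5 CPM in *Unc80* S/S (ratio 0.932, interval 0.854 to 1.02). None of these 4 intervals excluded 1.

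Calnexin, calreticulin and Pdia3 fold glycoproteins in every cell type and serve class I heavy chains among many others. Per kilobase of exon they were, with *B2m*, the 4 highest of the 31 genes, with *Calr* at 87.5, *Canx* at 70.1 and *Pdia3* at 45.2 CPM in *Unc80* G/G, against 93.8, 71.1 and 49.2 CPM in *Unc80* S/S. *Calr* had 251.9 CPM in *Unc80* G/G and 270.2 CPM in *Unc80* S/S bulbs, a ratio of 0.932 (0.910 to 0.955). *Pdia3* had 141.9 CPM in *Unc80* G/G and 154.6 CPM in *Unc80* S/S (ratio 0.918, interval 0.889 to 0.948). *Canx* had 328.8 CPM in *Unc80* G/G and 333.7 CPM in *Unc80* S/S (ratio 0.985, interval 0.965 to 1.01). *Calr* and *Pdia3* were thus lower in *Unc80* G/G by more than counting error, with no library values to set beside it. The interval lay below 1 for 1267 of all 15818 genes. In *B2m* the interval also excluded 1, yet edgeR gave an unadjusted p of 0.146. As *Calr*, *Canx* and *Pdia3* take most of the reads, the sum of the 31 genes was lower in *Unc80* G/G (1035 CPM in *Unc80* G/G and 1064 CPM in *Unc80* S/S). Without these 3 it was 312.5 CPM in *Unc80* G/G and 306.0 CPM in *Unc80* S/S (ratio 1.02, interval 0.999 to 1.04). Another 6 chaperones and folding enzymes of this compartment were *Hspa5*, *Hsp90b1*, *Pdia4*, *Pdia6*, *Uggt1* and *Ganab*. All 6 had ratios below 1, beside 8358 of all 15818 genes. The counting interval excluded 1 for 3 of the 6, beside 15.5% of all genes. Intervals are narrower where more reads were counted. Of the 9 genes of the olfactory bulb list, at mean levels from 13.8 to 553 CPM, the interval excluded 1 for 3 higher and 4 lower. The sum of those 9 had a ratio of 0.979 (0.970 to 0.987). *Hspa5*, which encodes BiP, was at 247.3 CPM in *Unc80* G/G and 274.9 CPM in *Unc80* S/S (ratio 0.899, interval 0.878 to 0.921). *Hsp90b1*, which encodes GRP94, was at 344.3 CPM in *Unc80* G/G and 350.5 CPM in *Unc80* S/S (ratio 0.982, interval 0.962 to 1.003).

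**Figure D4:**
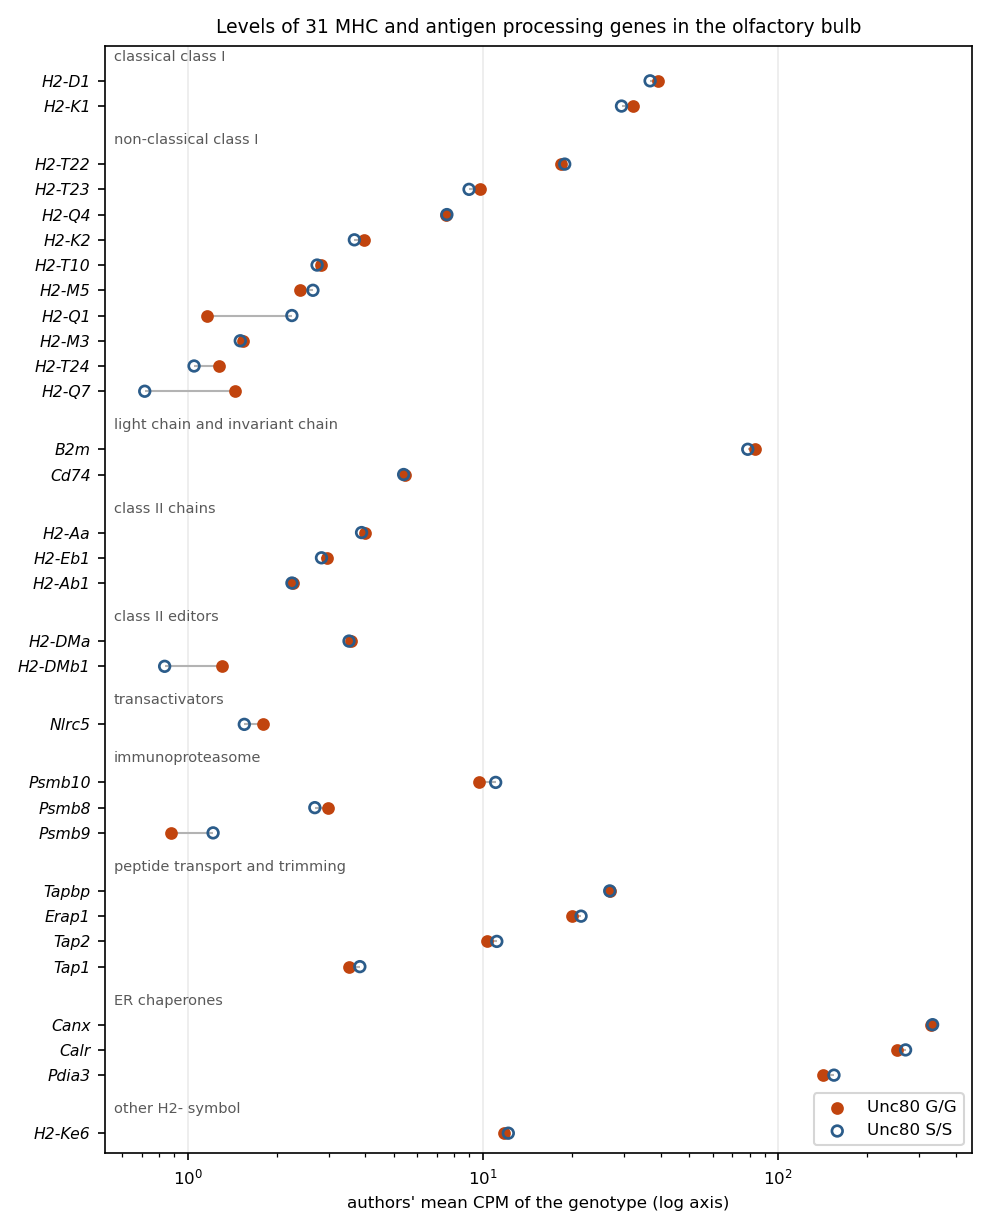
Authors' mean CPM of each gene (x axis, log scale) in *Unc80* G/G (filled orange) and *Unc80* S/S bulbs (open blue), grouped by role. The circles lie close to each other or overlap in most genes and are farthest apart in *H2-Q7* (1.45 CPM in *Unc80* G/G and 0.715 CPM in *Unc80* S/S) and *H2-Q1* (1.17 CPM in *Unc80* G/G and 2.25 CPM in *Unc80* S/S).

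The class II chains differed by less than counting error between the genotypes. Per kilobase of exon they stood at 1.52 CPM (*H2-Eb1*), 1.05 CPM (*H2-Aa*) and 0.885 CPM (*H2-Ab1*) in *Unc80* G/G, against 1.46, 1.02 and 0.878 CPM in *Unc80* S/S, below both classical heavy chains. *H2-Aa*, the alpha chain of I-A, had 3.98 CPM in *Unc80* G/G and 3.88 CPM in *Unc80* S/S, a ratio of 1.03 (0.836 to 1.25). *H2-Ab1*, its beta chain, had 63 and 51 reads in the *Unc80* G/G libraries (2.49 and 2.06 CPM), against 69 and 48 reads in those of *Unc80* S/S (2.61 and 1.90 CPM). Here the 2 libraries of a genotype differed more than the genotypes did, with an edgeR log2 fold change of 0.01 (SE 0.22, adjusted p = 0.995). *H2-Eb1*, the beta chain of I-E, had 2.95 CPM in *Unc80* G/G and 2.84 CPM in *Unc80* S/S (ratio 1.04, interval 0.822 to 1.32). *Cd74*, the invariant chain, had 5.44 CPM in *Unc80* G/G and 5.39 CPM in *Unc80* S/S (ratio 1.01, interval 0.849 to 1.19). The 3 chains together came to 9.21 CPM in *Unc80* G/G and 8.97 CPM in *Unc80* S/S (ratio 1.03, interval 0.8999 to 1.17), and the interval of each chain included 1.

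H2-DM, a dimer of an alpha and a beta chain, exchanges the fragment of the invariant chain in the class II groove for a peptide. The ratios of its 2 chains lay apart, a difference that was not tested. *H2-DMb1* (chr17:34153072-34160230, plus strand) had 1.31 CPM in *Unc80* G/G and 0.835 CPM in *Unc80* S/S, a ratio of 1.57 (1.06 to 2.38), from about 66 reads in *Unc80* G/G and 43 reads in *Unc80* S/S. *H2-DMa* had 3.57 CPM in *Unc80* G/G and 3.52 CPM in *Unc80* S/S (ratio 1.02, interval 0.822 to 1.26). Under the looser limit, the *H2-DMa* libraries had 94 and 85 reads in *Unc80* G/G and 94 and 88 reads in *Unc80* S/S. The reads of *H2-DMb1* could not be recovered per library, and reads from the 19.1% of its stretches that *H2-DMb2* also holds may have been counted for either gene.

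Lastly, *H2-Ke6* carries the prefix of the locus but encodes an enzyme, 17-beta-hydroxysteroid dehydrogenase 8, and no MHC chain. It had 11.8 CPM in *Unc80* G/G and 12.2 CPM in *Unc80* S/S (ratio 0.966, interval 0.863 to 1.08).

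Of the 31 genes, 23 lie on chromosome 17 between 33915899 and 37274484, and 86 other genes of the table share that interval. Among these neighbors 2, or 2.33%, were past 1.5-fold, both lower in *Unc80* G/G. *Gpsm3*, a regulator of G protein signaling in leukocytes, had 0.965 CPM in *Unc80* G/G and 1.64 CPM in *Unc80* S/S (ratio 0.590, interval 0.401 to 0.840). Gm8750, which lies between *H2-Q4* and *H2-Q7*, had 1.38 CPM in *Unc80* G/G and 2.36 CPM in *Unc80* S/S (ratio 0.586, interval 0.428 to 0.791). The share was 13.04% among the 23 genes in the interval that were chosen by name. It was 0.327% among the 611 genes of the rest of chromosome 17 and 0.518% among all genes. These shares are not matched for level: every gene past 1.5-fold in the interval had a mean under 5 CPM, where 2.30% of all genes were past it. The median log2 fold change was 0.03 for the 23, -0.02 for their neighbors and -0.01 for the rest of the chromosome.

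**Figure D5:**
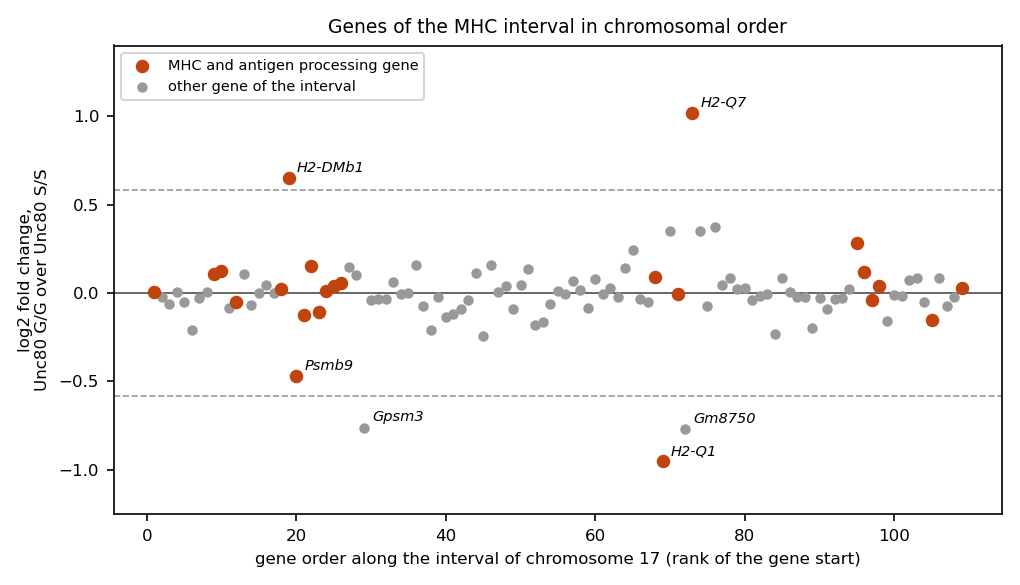
Log2 fold change of the CPM means, *Unc80* G/G over *Unc80* S/S (y axis), of the 109 genes of the MHC interval in their order along chromosome 17 (x axis, rank). Orange points are the 23 genes described here and grey points their 86 neighbors, with dashed lines at 1.5-fold. *H2-Q1* (-0.95), Gm8750 (-0.77) and *H2-Q7* (1.02) lie within 5 ranks of each other, while the other 2 genes past the lines, *H2-DMb1* (0.65) and *Gpsm3* (-0.76), lie at ranks 19 and 29.

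The other genes of the pathway were read from a list of 49, of which 45 were found in the table and 0 were past 1.5-fold. The table holds 22 symbols that had been turned into dates, so *Marchf1* and *Marchf8*, formerly *March1* and *March8*, could not be looked up. Of these 45, 16 were higher and 29 lower in *Unc80* G/G, with a median log2 fold change of -0.03 beside -0.01 for all genes. The counting interval excluded 1 for 3 higher and 8 lower genes of the 45, beside 15.5% of all genes. *Wdfy4*, needed for cross-presentation by dendritic cells, came nearest among the higher ones, with 2.48 CPM in *Unc80* G/G and 1.68 CPM in *Unc80* S/S (ratio 1.48, interval 1.11 to 1.96). *Psme2*, a subunit of the interferon-inducible proteasome activator PA28, was nearest among the lower ones, with 3.05 CPM in *Unc80* G/G and 4.09 CPM in *Unc80* S/S (ratio 0.745, interval 0.601 to 0.922). *Rfx5*, a factor that binds MHC promoters, had 49.9 CPM in *Unc80* G/G and 48.1 CPM in *Unc80* S/S. *Ctss*, the endosomal protease that cuts the invariant chain, had 38.0 CPM in *Unc80* G/G and 36.5 CPM in *Unc80* S/S.

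Markers of the cells that could carry these transcripts were set beside them. All 11 microglial markers were listed. Their sum was 325.2 CPM in *Unc80* G/G and 320.3 CPM in *Unc80* S/S bulbs (ratio 1.02, interval 0.993 to 1.04). Of the 11, 8 were higher in *Unc80* G/G, with a median log2 fold change of 0.08. The interval excluded 1 for *Csf1r* only, which was lower in *Unc80* G/G. Of 7 border macrophage markers, 5 were listed, and their sum was 21.7 CPM in *Unc80* G/G and 21.5 CPM in *Unc80* S/S (ratio 1.01, interval 0.929 to 1.10). Only 1 of the 5, *Mrc1*, was higher in *Unc80* G/G and 4 were lower, with a median log2 fold change of -0.02. All 6 endothelial markers were listed, with a sum of 215.9 CPM in *Unc80* G/G and 209.8 CPM in *Unc80* S/S (ratio 1.03, interval 1.002 to 1.06). Of these, 4 of 6 were higher in *Unc80* G/G, with a median log2 fold change of 0.04, and the interval excluded 1 for *Cldn5* only. *H2-D1*, *H2-K1* and *B2m* lay on the same side as the microglial and the endothelial sums, and the part of either in those 3 genes was not tested. None of 8 T and natural killer cell markers was listed, and of 5 B cell markers only *Ighm* was (5.46 CPM in *Unc80* G/G and 5.21 CPM in *Unc80* S/S). Of 6 dendritic cell markers, *Flt3* and *Zbtb46* were listed and *Itgax*, *Xcr1*, *Clec9a* and *Cd209a* were not. *Flt3* and *Zbtb46* summed to 13.97 CPM in *Unc80* G/G and 15.5 CPM in *Unc80* S/S (ratio 0.901, interval 0.813 to 0.999). The interval of each alone included 1, and whether they stand for dendritic cells here was not tested. Of 5 monocyte and neutrophil markers only *S100a9* was listed, at 2.66 CPM in *Unc80* G/G and 1.68 CPM in *Unc80* S/S (ratio 1.58, interval 1.196 to 2.09), higher like *H2-Q7* and *H2-DMb1*, and its part in either was not tested. The lowest mean over both genotypes in the table was 1.01 CPM, so a gene not listed may have been below that level.

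Interferon induces most genes of class I presentation, and 17 of 18 interferon response genes were listed. Of these, 9 were higher and 8 lower in *Unc80* G/G, 0 past 1.5-fold, with a sum of 160.6 CPM in *Unc80* G/G and 161.0 CPM in *Unc80* S/S (ratio 0.997, interval 0.967 to 1.03). The counting interval excluded 1 for 5 of the 17, beside 15.5% of all genes. Of these, 2 were higher, *Isg15* (2.88 CPM in *Unc80* G/G and 1.97 CPM in *Unc80* S/S) and *Rtp4* (3.23 CPM in *Unc80* G/G and 2.50 CPM in *Unc80* S/S). The other 3 were lower, *Igtp* (5.43 CPM in *Unc80* G/G and 6.86 CPM in *Unc80* S/S), *Ifit1* (7.21 CPM in *Unc80* G/G and 8.59 CPM in *Unc80* S/S) and *Ifit3* (15.4 CPM in *Unc80* G/G and 17.7 CPM in *Unc80* S/S).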

How the data were processed

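The deposited table was made by the authors in Partek (Flow), with reads aligned to GRCm38 (mm10), and holds per gene the mean CPM of each genotype as the authors computed it. It also holds the authors' p-value, FDR, ratio and fold change, which were not used. A second deposited file gives the total read counts of the 4 libraries. The sources used here do not state the counting tool, the annotation, the normalization or whether strand was used, and the methods name a stranded total RNA kit and the labels an mRNA kit. The CPM means summed to 998014 for Unc80 G/G and 998057 for Unc80 S/S.

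The members and gene lists were chosen with earlier results of these data known. All members may be named, and those past 1.5-fold, those with recovered reads and the highest and lowest of each role were given in full. *Gpsm3*, Gm8750 and the genes named from the other lists for their values were chosen after those were seen. Log2 fold changes are the quotient of the CPM means, with no pseudocount. Values from the table have no n or SD, since they are the authors' means.

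Each mean was also written as an offset of 0.0001 CPM plus whole reads of either library, with fitted library totals of 25345718 and 24738078 counted reads for Unc80 G/G and 26479648 and 25238203 for Unc80 S/S. The step was added once the values had been seen. Solutions with a chance of a random fit below 0.001 in both genotypes were kept, which 2545 genes (16.1%) passed. Of the 7 members among them, *B2m*, *H2-M3* and *H2-M5* also passed at 0.0001. The recovered genes are not a random sample: 0 of the 12 members that share at least 1% of their stretches were among them. Reads were tested with edgeR 4.0.16 (quasi-likelihood, Benjamini-Hochberg over the 2545 genes) and with DESeq2 1.42.0 in R 4.3.3, and the scripts were tested on simulated data. With 2 pools per genotype, p-values set the difference between genotypes against the spread between pools. Both tools estimate that spread with information from all tested genes, not from each gene alone. Positions and transcripts are from GENCODE M21, in which 15594 symbols matched 1 gene, and promoters from RefSeq. Alternatives were the pseudocount, a minimum of 5 CPM, a 1.3-fold threshold, centring, TMM, DESeq2, filterByExpr, the recovery limit and leaving out each library. Other steps used Python 3.11.15 with scipy 1.17.1, pandas 2.3.3, numpy 2.4.6 and, for plots, matplotlib 3.10.9.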

Additional observations from a re-analysis of the deposited data

How the results depend on the processing

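The number of genes past 1.5-fold was 3 without a pseudocount (0.518% of all genes) and 3 with log2(CPM + 0.1) (0.411%). It was 1 with log2(CPM + 1) (0.0759%), where *H2-Q1* alone passed, and 0 of 15 with a minimum mean of 5 CPM (0.048%). At 1.3-fold it was 4 (2.35%), *Psmb9* being the fourth. The median log2 fold change of the members stayed between -0.02 (minimum of 5 CPM) and 0.03 (without *Calr*, *Canx* and *Pdia3*). None of the 7 recovered genes was called by edgeR with TMM factors, by DESeq2, with filterByExpr, with the stricter or looser recovery limit, or without any 1 library, with a smallest adjusted p of 0.839. Leaving out each library in turn, the edgeR log2 fold change ranged from 0.03 to 0.12 in *B2m* and from -0.77 to -0.21 in *Psmb9*, which kept their direction. It changed sign in the other 5, ranging from -0.195 to 0.258 in *H2-Ab1*, -0.086 to 0.136 in *H2-M3*, -0.362 to 0.0386 in *H2-M5*, -0.0334 to 0.684 in *H2-T24* and -0.051 to 0.527 in *Nlrc5*. A genotype left with 1 library was assumed to vary like the other. No paired analysis was possible because the recovered libraries carry no replicate number. For the 24 genes without recovered reads, *H2-Q7*, *H2-Q1* and *H2-DMb1* among them, the spread between pools could not be assessed from the means.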
